A study of Homo sapiens with 32 samples.

Results

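The 10 genes described here encode proteins that switch off inflammatory and growth factor signals: the RNA-binding proteins ZFP36 and ZFP36L1, the dual specificity phosphatases DUSP1, DUSP2, DUSP4, DUSP5 and DUSP6, and SOCS1, SOCS3 and CISH of the suppressor of cytokine signalling family. They were picked by name, and each symbol matched a single row among the 60107 genes counted. Of the 10, 9 were among the 12406 genes that reached a mean of 10 deposited counts and were tested. DUSP1 stayed below that limit, with 128 reads in all libraries together.

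The data are 3′ end counts from 32 libraries of THP-1, a human monocytic leukaemia line, 4 in each of 8 groups. All lines derived from a knockout of ATP citrate lyase (ACLY), the cytosolic enzyme that turns citrate into acetyl-CoA. KO cells carried that knockout alone. WT, HA and SA cells carried the knockout plus a lentiviral copy of wild type ACLY, of the catalytically inactive H760A mutant or of the S455A mutant, which lacks the serine that kinases phosphorylate. WT is therefore a rescued knockout and not the parental line. The transduced cells were selected with puromycin, and the sources used here do not say whether the KO cells received a vector. Each line was left unstimulated or received LPS, the endotoxin of Gram-negative bacteria, which monocytes sense through a Toll-like receptor, at 100 ng/ml for 3 h according to the labels, while the general treatment paragraph of the study's methods gives a lower dose. The labels give 1 line per genotype, so p-values measure the spread between these libraries, which may be technical, and other differences between the lines cannot be told apart from the genotype.

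Libraries held 6504099 to 14750815 reads on genes. In each group 1 library stood furthest from the rest over all tested genes, namely replicate 3 of WT, WT LPS, KO and KO LPS and replicate 1 of HA, HA LPS, SA and SA LPS, with a root mean square log2 deviation of 0.677 to 1.89 against 0.365 to 0.721 in the other 24. These 8 libraries detected 11707 to 12389 of the tested genes, against 12356 to 12405, and mitochondrial transcripts took 4.94% to 7.95% of their reads, against 3.32% to 8.36%. Several of the 10 genes moved with them. DUSP2 and SOCS3 were lowest of their group in 7 of the 8, DUSP6 in 6, and ZFP36L1, SOCS1 and CISH in 5, while DUSP4 was highest in 7 and ZFP36 in 5. What part this had in each result was not tested, and estimates or group means without them are given beside several that moved. The furthest libraries were picked from these same values. Leaving them out narrows the spread by that choice, so the adjusted p-values of that fit run too low. ACLY itself read 67.2 to 107 normalized counts in KO and 90.7 to 117 in WT. The transgenes hold the coding sequence alone and the place of the edit is not given in the sources used here, so 3′ end counts do not check the labels. The 10 monocytic markers summed to 13500 to 14990 normalized counts in WT and 24850 to 36890 in KO, and to 23420 to 29540 in HA and 13110 to 13410 in SA. LYZ had the highest mean of the 10 over all libraries (11560), so these sums weigh it most. Against unstimulated WT, 8 of the 10 were higher in KO (median log2 change 0.38), 6 in HA (0.11) and 4 in SA (-0.11). The part of the markers in the differences between lines was not tested. CD3E, a T cell marker, was at 0 in every library.

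Cells limit an inflammatory response at several steps. Proteins of the ZFP36 family bind AU-rich stretches near the 3′ end of cytokine mRNAs such as TNF and bring in the enzymes that remove the poly(A) tail. Dual specificity phosphatases strip phosphate from MAP kinases, with DUSP5 in the nucleus and DUSP6 in the cytoplasm acting mainly on ERK, and DUSP1, DUSP2 and DUSP4 in the nucleus acting on ERK and the stress kinases. SOCS1 and SOCS3 block JAK kinases at activated cytokine receptors, and CISH binds receptors that signal through STAT5 and dampens them. Many of these genes are themselves switched on by the pathway they close, so that their mRNA is often read as a trace of that signal.

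Promoters of 8 of the 10 genes were read from RefSeq on GRCh38.p14, as 250 bases before and 50 after the annotated start. DUSP4 and DUSP5 are named only. Both strands were searched for the STAT motif TTCNNNGAA, the κB motif, the cyclic AMP element TGACGTCA, the AP-1 motif TGANTCA and the CArG motif. The sequences below are those of 3 genes whose mRNA the LPS and line comparisons turn on and in which a motif was found, with the motif in capitals. The promoter of CISH (chr3:50611725-50612024, minus strand) holds TTCNNNGAA at 4 places, which begin 241, 230, 129 and 112 bases before the start, and 7.66% of 35116 promoters hold at least 1.
CISH: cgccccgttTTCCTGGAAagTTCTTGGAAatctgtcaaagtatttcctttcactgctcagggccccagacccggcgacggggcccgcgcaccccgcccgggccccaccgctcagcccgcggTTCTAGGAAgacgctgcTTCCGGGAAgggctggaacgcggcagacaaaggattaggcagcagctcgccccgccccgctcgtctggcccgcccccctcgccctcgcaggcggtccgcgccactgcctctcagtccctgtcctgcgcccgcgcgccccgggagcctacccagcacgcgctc
The promoter of SOCS1 (chr16:11256155-11256454, minus strand) holds 1 κB motif, 67 bases before the start, and 9.08% of promoters hold one.
SOCS1: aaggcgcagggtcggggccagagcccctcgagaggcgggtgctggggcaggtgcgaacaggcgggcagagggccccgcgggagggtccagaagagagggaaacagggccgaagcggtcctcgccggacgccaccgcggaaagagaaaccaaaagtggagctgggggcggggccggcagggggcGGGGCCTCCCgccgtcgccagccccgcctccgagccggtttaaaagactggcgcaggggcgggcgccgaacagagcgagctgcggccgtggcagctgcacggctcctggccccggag
The second start of ZFP36L1 (chr14:68793367-68793666, minus strand) has TGACGTCA 52 bases upstream, a match that 1.85% of promoters have.
ZFP36L1: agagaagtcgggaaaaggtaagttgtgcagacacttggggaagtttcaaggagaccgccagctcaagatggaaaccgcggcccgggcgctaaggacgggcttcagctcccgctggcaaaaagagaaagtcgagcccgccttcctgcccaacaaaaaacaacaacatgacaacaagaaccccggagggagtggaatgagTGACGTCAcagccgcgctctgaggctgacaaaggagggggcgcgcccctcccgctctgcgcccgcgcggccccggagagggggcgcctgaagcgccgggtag
DUSP1 (chr5:172771146-172771445, minus strand) held the same element 125 bases before its start. No other match was found in the windows of ZFP36, ZFP36L1, DUSP1, DUSP2, DUSP6, SOCS1, SOCS3 and CISH. The SOCS3 windows (chr17:78360876-78361175 and chr17:78359618-78359917) do not cover the start that GENCODE gives, and the stretch before that start was not searched. AP-1 and CArG motifs occurred in 7.71% and 1.29% of all promoters. A match is a description of these letters and no evidence of binding. Of the other genes the results turn on, all protein coding, GENCODE places DUSP5 at chr10:110497907-110511533 (plus strand), DUSP6 at chr12:89347235-89352501 (minus) and SOCS3 at chr17:78356778-78360077 (minus).

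The question of the LPS comparisons was how each line answers the stimulus. DUSP5 rose with LPS in KO cells, by 2.26 ± 0.30 on the log2 scale (SE, 95% interval 1.64 to 2.88, limma adjusted p = 2.1e-05). It was the 1 member of 9 called there at an adjusted p below 0.01, where 0.58% of all tested genes were called. With only the compared groups in the fit the call was lost (adjusted p of DUSP5 0.015, 0.169% of genes called). No member was called by limma with LPS in WT, HA or SA, in which 0.25%, 0.403% and 0.492% of genes were called. At an unadjusted p under 0.05 the members numbered 1 in WT, 3 in HA and 2 in SA, against 200, 591 and 1222 of all genes. Limma-voom on the recovered reads likewise called 0, 0 and 0 members, beside 0.161%, 0.379% and 0.443% of genes. The median change of the 9 members was -0.16 in WT, 0.78 in KO, 0.43 in HA and 0.19 in SA, beside medians of all genes of -0.01, 0.02, 0.00 and -0.02. In bulk RNA, fewer cells that express a gene and less RNA per cell cannot be told apart.

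**Figure D1:**
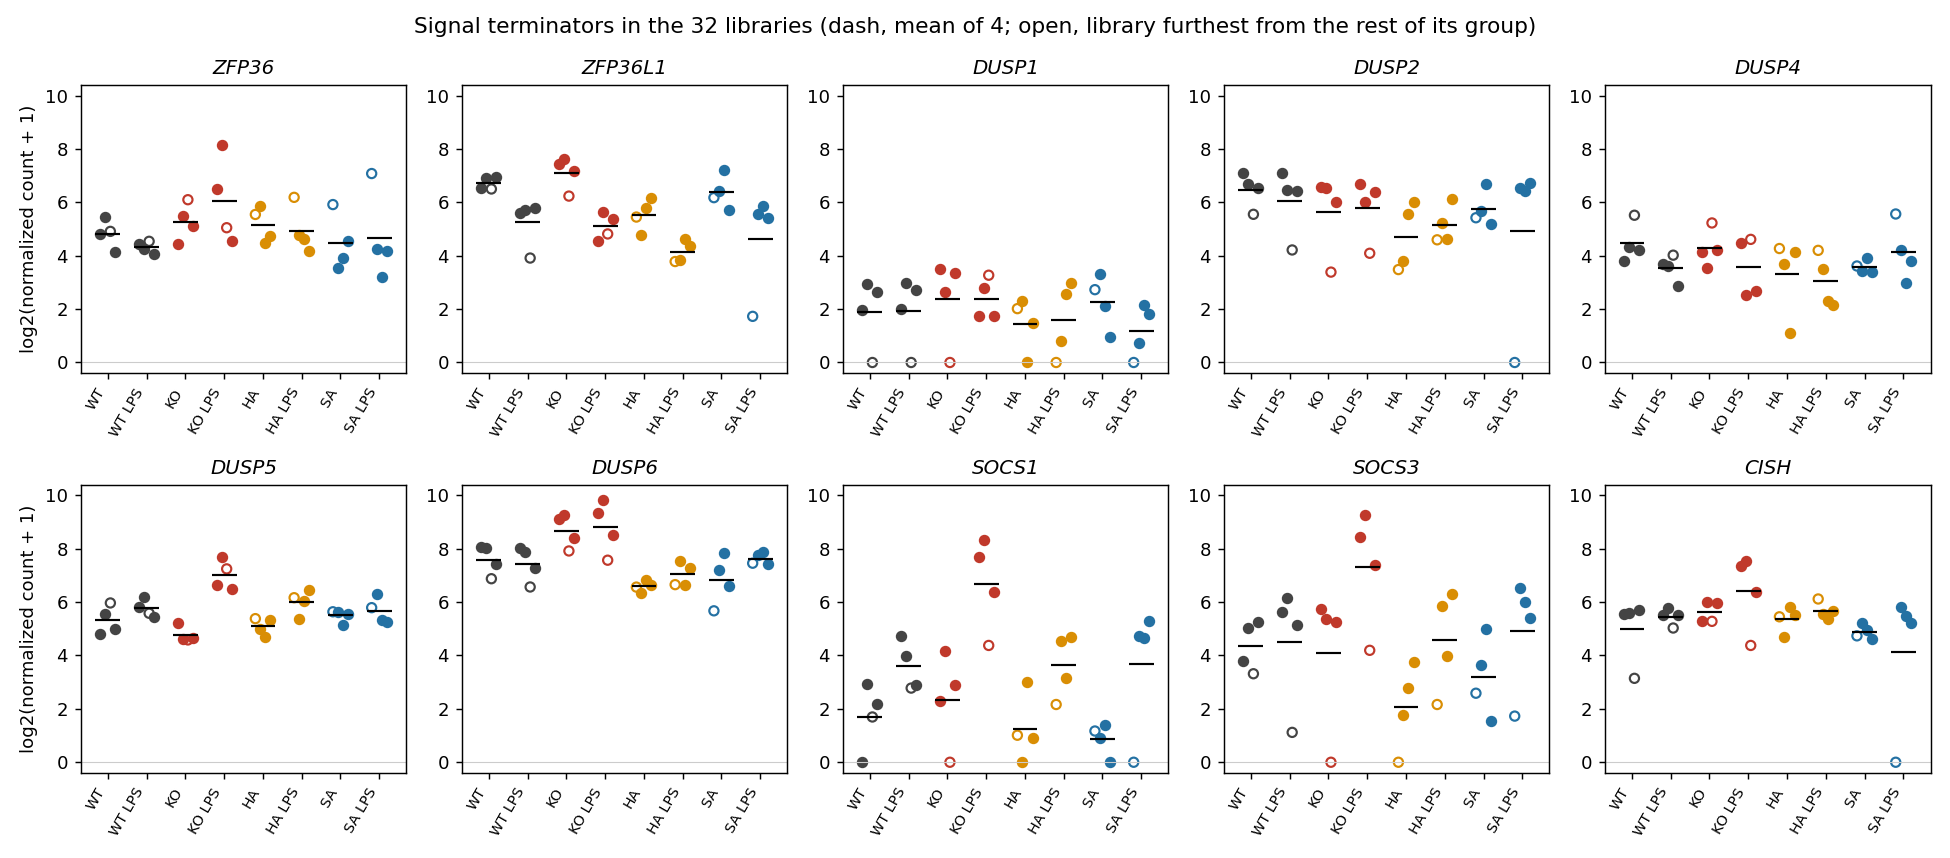
Normalized counts of the 10 genes, as log2(normalized count + 1), in each of the 32 libraries, with 1 panel per gene and the 8 groups along the horizontal axis. Points are libraries, dashes are means of 4, and open points are the library furthest from the rest of its group. DUSP5 in KO LPS sits between 89.3 and 205 normalized counts, above every library of the other groups, and the open points are often the lowest for DUSP2, DUSP6 and SOCS3.

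Replicate numbers were taken as pairs in the WT and KO libraries, since same-numbered libraries deviated together in all WT and KO comparisons. Replicate 3 was the furthest library in each of these groups. By itself this can make same-numbered libraries deviate together from their group means, and whether the numbers mark pairs was not tested. With the number as a block in a fit of the 16 WT and KO libraries, ZFP36L1 fell with LPS in WT by 1.47 on the log2 scale (limma adjusted p = 0.0045, 0.58% of genes called). In KO the block added ZFP36L1, at a log2 change of -2.02 (6.4e-05), SOCS1 at 4.35 (3.3e-04) and SOCS3 at 3.23 (0.0011) to DUSP5, in a fit that called 1.86% of genes. Such a fit was added after seeing the data. Its use for WT and KO was chosen from these same values, so its adjusted p-values may run too low. The block over the compared groups alone called the same 1 and 4 members, where 1.02% and 0.935% of genes were called. In HA against WT that block called 8 genes unstimulated and 7 after LPS, against 196 and 133 without it. With LPS it called 3 in SA and 70 in HA, against 7 and 33 without it. No member was among them.

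Of the ZFP36 family, ZFP36, also called tristetraprolin, was low and uneven. Its normalized counts were 27.2, 42.7, 29.1 and 16.6 in WT and 20.9, 18.2, 22.3 and 15.8 after LPS. In KO they were 20.52, 43.4, 67.6 and 34.04, and after LPS 90.1, 280, 32.1 and 22.7. In KO LPS, 2 libraries were above every unstimulated one and the other 2 lay among them, and the LPS change in KO was 0.78 (95% interval -0.64 to 2.20, limma adjusted p = 1.0). HA read 21.2 to 56.7 and SA 10.7 to 59.4 without LPS. After LPS, HA read 17.1 to 71.9 and SA 8.13 to 134, and in both lines replicate 1, the library furthest from the rest, was the highest after LPS. The log2 fold change of ZFP36 with LPS was -0.50 in WT and -0.21 in HA, with 0.19 for SA, none of them called. Without the furthest library of each group the estimate for KO was 1.39 (adjusted p = 0.32).

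ZFP36L1, the close relative of ZFP36 that shares its RNA-binding domain, was lower after LPS in all 4 same-numbered pairs of WT and of KO, as were 8.09% and 10.2% of genes. WT held 93.0, 119, 89.6 and 122 normalized counts unstimulated and 47.9, 51.2, 14.1 and 53.9 after LPS. KO held 171, 197, 74.3 and 144, and 22.5, 48.8, 27.2 and 40.7 after LPS. HA held 42.7, 26.4, 54.2 and 70.5, and 12.8, 13.3, 23.8 and 19.7 after LPS. In WT, KO and HA the stimulated libraries lay wholly below the unstimulated ones, as did 0.838%, 1.5% and 1.5% of all genes. SA held 71.3, 83.9, 147 and 51.9 and then 2.32, 46.2, 56.9 and 41.9, where the groups overlapped. The log2 fold changes were -1.47 (WT), -2.02 (KO), -1.39 (HA) and -1.74 (SA), each with an SE of 0.59. The limma adjusted p-values were 1.0, 0.15, 0.80 and 0.27, so that none was called without the block. Without the furthest library of each group the estimate for SA was -0.83. That fit gave ZFP36L1 -1.10 in WT, not called beside 0.363% of genes, and -2.22 in KO, with an adjusted p of 3.3e-04. Leaving out SA LPS replicate 1 alone also called ZFP36L1 and SOCS1 with LPS in KO, beside 0.79% of genes.

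Among the phosphatases DUSP5, which removes phosphate from ERK in the nucleus, was the one called. WT held 27.2, 46.0, 61.6 and 30.6 normalized counts unstimulated and 55.4, 72.8, 46.9 and 42.8 after LPS. KO held 35.9, 23.3, 23.0 and 23.9 unstimulated, and 99.6, 205, 151 and 89.3 after LPS, which no other library reached. HA held 24.8 to 40.7 and then 40.5 to 87.4, and SA 34.5 to 49.1 and then 37.6 to 77.0. By group mean KO LPS stood first (136 ± 53.0, SD, n = 4) and unstimulated KO last (26.5 ± 6.27). The other groups lay between 34.1 and 65.8, and apart from KO LPS each neighbour in the order overlapped the next. The log2 fold change of DUSP5 with LPS was 0.43 in WT (95% interval -0.19 to 1.05) and 0.90 in HA (0.28 to 1.52), neither of them called. For SA it was 0.17 (-0.45 to 0.79). The fit that left out the furthest libraries gave 0.71 in WT, 2.13 in KO, 0.94 in HA and 0.18 in SA, of which KO was called. The response in KO exceeded that in WT by 1.83 ± 0.43 (SE, 95% interval 0.95 to 2.71), with an unadjusted p of 2.1e-04 and a limma adjusted p of 0.83, and so was not called. With the block it was 1.83 with an adjusted p of 0.079, and without the furthest libraries 1.42 (1.0). Only 1 gene in the 12406, 0.00806%, was called for that difference by limma, and likewise by limma-voom. Of the members none was called by either.

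**Figure D2:**
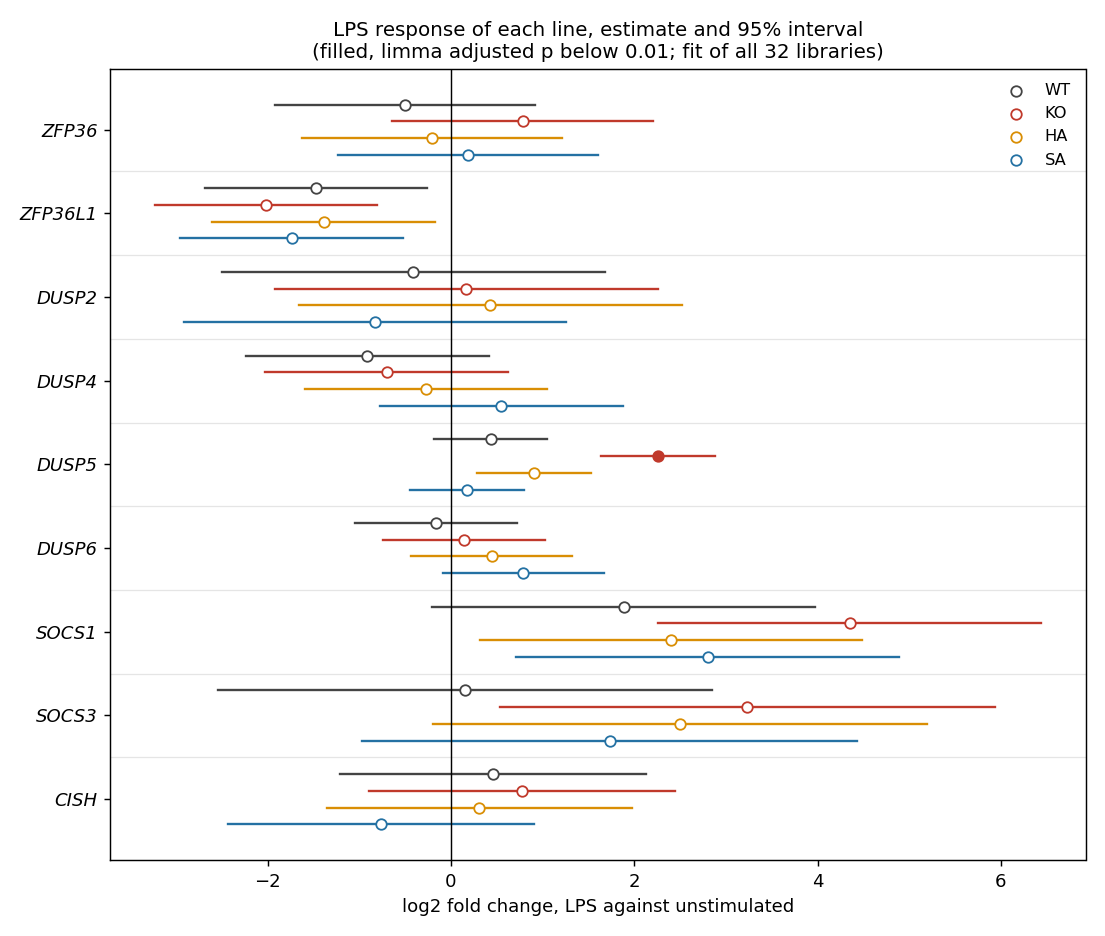
Estimated LPS response of the 9 tested genes in each line, as log2 fold change of LPS against unstimulated with its 95% interval, from the limma fit of all 32 libraries. The filled point, DUSP5 in KO at 2.26, is the single one with an adjusted p below 0.01, and the ZFP36L1 estimates lie between -2.02 and -1.39 in all lines.

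DUSP6, the cytoplasmic ERK phosphatase, was the most abundant of the 10 by reads, with 80 to 768 reads in a library. WT held 263, 260, 116 and 171 normalized counts unstimulated and 257, 233, 93.8 and 154 after LPS. KO held 559, 607, 241 and 335, and then 652, 913, 189 and 360. Replicate 3 was the lowest library in all 4 of these groups. HA held 93.5, 79.8, 112 and 98.7 and then 99.8, 185, 100.0 and 155. SA held 50.05, 147, 229 and 96.2 and then 175, 216, 233 and 169. On the log2 scale the LPS estimates were -0.16 (WT), 0.14 (KO), 0.45 (HA) and 0.79 (SA), and the 95% intervals of all 4 included 0. Without the furthest libraries they were -0.11, 0.31, 0.56 and 0.46.

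DUSP2, a nuclear phosphatase first found in activated lymphocytes, was spread widely within groups. It read 45.9 to 135 in WT, 17.6 to 138 in WT LPS, 9.46 to 93.6 in KO and 16.1 to 102 in KO LPS. HA read 10.2 to 63.5 and HA LPS 23.2 to 68.6. SA read 35.8 to 103, and SA LPS 91.2, 85.9 and 104 beside a library at 0, where a count of 0 allows up to 3.47 normalized counts. The LPS estimate of DUSP2 in SA was -0.83 with that library and 0.70 without the furthest of each group, neither of them called. The lowest library was the one furthest from the rest in 7 of 8 groups. DUSP4 was low throughout, at 1.18 to 46.3 normalized counts, and the same libraries were its highest in 7 of 8 groups. Its LPS estimates were -0.91 (WT), -0.70 (KO), -0.27 (HA) and 0.55 (SA) on the log2 scale, with 95% intervals that included 0, and the last was 0.09 without the furthest libraries. DUSP1, the textbook early phosphatase of the LPS response, gave 0 to 10 reads in a library and 0 in 6 of them, which allows up to 4.05 normalized counts there. Its group means lay between 1.67 and 6.19 normalized counts, and at this depth no response was detectable. With the limit on low counts removed, the LPS change of DUSP1 was 0.04 ± 0.85 in WT and 0.02 ± 0.85 in KO (SE).

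SOCS1, SOCS3 and CISH had their highest group means in KO after LPS, though each of these groups overlapped the next in order. SOCS1 was nearly silent without stimulus, at 0, 6.70, 2.24 and 3.501 normalized counts in WT and 3.85, 16.9, 0 and 6.44 in KO. After LPS it read 25.4, 14.7, 5.86 and 6.34 in WT, and 205, 318, 19.8 and 81.4 in KO, where every stimulated library was above every unstimulated one, as in 1.95% of all genes in that direction. HA went from 1.02, 0, 7.08 and 0.88 to 3.48, 22.1, 7.92 and 24.9. SA went from 1.25, 0.893, 1.64 and 0 to 0, 25.7, 24.4 and 38.5, so that 3 stimulated SA libraries were above all unstimulated ones and replicate 1 had no read. A count of 0 allows up to 2.395 to 4.29 normalized counts in the SOCS1 libraries at 0. The log2 fold changes were 1.89 (WT), 4.35 (KO), 2.40 (HA) and 2.80 (SA), each with an SE of 1.02. Their limma adjusted p-values were 1.0, 0.027, 0.79 and 0.32. Without the library furthest from the rest in each group, SOCS1 rose by 4.34 in KO (adjusted p = 0.0015, 0.975% of genes called) and by 4.13 in SA (0.0032, 0.58% called), while HA, at 2.82, was not called (0.076, 0.653%).

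SOCS3, which blocks JAK kinases at the receptors of interleukin 6 and related cytokines, was more abundant. WT held 12.9, 31.8, 8.96 and 37.6 normalized counts and, after LPS, 47.9, 71.1, 1.17 and 34.1. KO held 52.6, 40.2, 0 and 36.8 and then 344, 613, 17.3 and 168. In both KO groups replicate 3 was the lowest library, and the other 3 stimulated libraries were above all unstimulated ones. HA held 0 to 12.3 unstimulated and 3.48 to 77.2 after LPS. SA held 1.89 to 31.2 and then 2.32 to 91.8, and the groups overlapped in both lines. The log2 fold changes of SOCS3 were 0.15 (WT), 3.23 (KO), 2.50 (HA) and 1.73 (SA), each with an SE of 1.32. They were 0.94 (WT), 2.91 (KO), 2.61 (HA) and 2.59 (SA) without the furthest library of each group, with adjusted p-values of 1.0, 0.020, 0.055 and 0.074. None was called without the block, and the difference between the KO and WT responses was 3.08 (95% interval -0.74 to 6.89, limma adjusted p = 1.0), or 1.98 without the furthest libraries.

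CISH, a SOCS family member that STAT5 switches on, read 45.8, 47.7, 7.84 and 50.8 normalized counts in WT and 44.9, 53.8, 31.7 and 44.4 after LPS. In KO it read 38.5, 62.4, 37.8 and 61.6 and then 161, 187, 19.8 and 82.2, so that 3 stimulated libraries exceeded all unstimulated ones and replicate 3 lay below them. The estimate for KO was 0.78 ± 0.81 and that for WT 0.46 ± 0.81 on the log2 scale (SE, limma adjusted p = 1.0). CISH was at 1.34 in KO (adjusted p = 0.017) and -0.02 in WT (1.0) without the furthest library of each group. HA read 24.8 to 55.4 and then 40.6 to 68.4. SA read 23.6 to 36.6, and 55.2, 44.1 and 35.9 beside 1 library at 0 after LPS.

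The comparison of KO with WT asks how cells without the enzyme differ from rescued ones. In KO against WT after LPS, DUSP5 was higher by 1.26 ± 0.30 on the log2 scale (SE, 95% interval 0.63 to 1.88, limma adjusted p = 0.0086). It was the 1 member called, beside 3.47% of all genes, and the median of the 9 members was 1.26 beside -0.01 over all genes. The call was close to the limit. It was lost in 13 of 32 fits that left out a single library. Without WT LPS replicate 1, 3 or 4 the adjusted p of DUSP5 was 0.021, 0.032 or 0.039, and without KO LPS replicate 2 or 3 it was 0.057 or 0.028. Leaving out KO LPS replicate 3 in turn called DUSP6, at 1.79 (adjusted p = 0.0072, 3.5% of genes called). In the other 8, without WT replicate 2, KO replicate 2 or 4, HA replicate 2, HA LPS replicate 3 or SA replicate 1, 2 or 4, the difference stayed at 1.26 with an adjusted p of 0.0103 to 0.0110. Without the library furthest from the rest in each group the DUSP5 difference was 1.12 (adjusted p = 0.032), and with library weights its adjusted p was 0.018. Every KO LPS library lay above every WT LPS library for DUSP5 and for ZFP36, as for 6.73% of genes in that direction, and the ZFP36 difference was 1.73 ± 0.69 (adjusted p = 0.16). For ZFP36 the margin was small, with the lowest KO LPS library at 22.71 normalized counts (29 reads) and the highest WT LPS library at 22.28 (19 reads).

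With the replicate block, 4 members were called in KO against WT after LPS, all higher in KO, beside 12.2% of genes (10.8% with the block in the compared groups alone, which called the same 4). They were DUSP5 at 1.26 (limma adjusted p = 0.0024), DUSP6 at 1.38 (1.3e-06), SOCS1 at 3.10 (0.0021) and SOCS3 at 2.81 (0.0010). For these 4 genes and ZFP36 the KO library was the higher of each of the 4 same-numbered pairs, which held for 19.8% of genes. Without the block, the limma adjusted p was 0.051 for DUSP6, 0.070 for SOCS1 and 0.26 for SOCS3. Leaving out the furthest library of each group gave 1.51 for DUSP6 (adjusted p = 0.0020), 3.60 for SOCS1 (0.0021), 2.72 for SOCS3 (0.0076) and 1.49 for CISH (0.0013), in a fit that called 7% of genes.

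**Figure D3:**
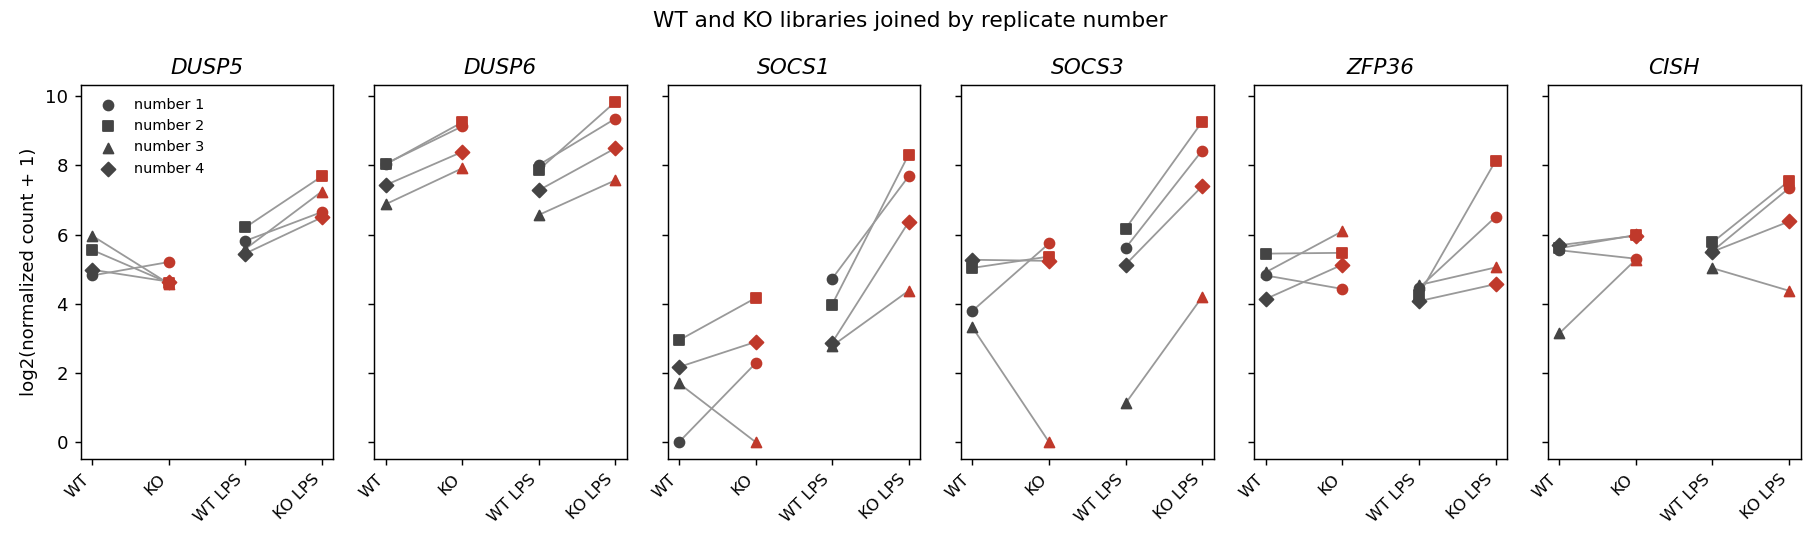
The 6 genes with the largest estimated difference between KO and WT after LPS, as log2(normalized count + 1) in WT and KO, unstimulated and after LPS, with lines that join libraries of the same replicate number. After LPS all 4 lines rise from WT to KO for DUSP5, DUSP6, SOCS1, SOCS3 and ZFP36, and 3 of 4 do for CISH.

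No member was called by limma in unstimulated KO against WT, where 2.9% of genes were, and limma-voom called 0 as well, beside 2.62% of genes. At an unadjusted p under 0.05 there was 1 member, beside 1770 of all genes. It was DUSP6, at 1.08 ± 0.43 on the log2 scale (SE, adjusted p = 0.20). The block gave DUSP6 the same 1.08 with an adjusted p of 3.1e-05, beside 9.28% of genes called (5.84% in the compared groups alone), and KO was higher in 4 of 4 pairs, as in 17.2% of genes. DUSP5 stood at -0.57 (95% interval -1.19 to 0.05). SOCS1, SOCS3 and CISH stood at 0.63, -0.27 and 0.64, with intervals that included 0. Without the furthest library of each group DUSP6 was 1.09 (adjusted p = 0.033), DUSP5 -0.30, SOCS1 1.41, SOCS3 0.75 and CISH 0.14, none called beside 4.97% of genes. DUSP2 was lower in KO in 4 of 4 pairs in both conditions, as were 19.6% and 21.5% of genes. Its log2 difference was -0.83 unstimulated, with a blocked adjusted p of 0.033 (95% interval -1.38 to -0.28), and -0.25 after LPS, with 0.53.

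HA cells hold inactive enzyme. The comparisons of KO and of HA with WT use the same WT libraries. After LPS, HA against WT was 0.24 for DUSP5, -0.40 for DUSP6, 0.05 for SOCS1, 0.06 for SOCS3 and 0.61 for ZFP36 on the log2 scale, where KO against WT was 1.26, 1.38, 3.10, 2.81 and 1.73. No member was called by limma or limma-voom in HA against WT. Limma called 2.52% of genes unstimulated and 2.02% after LPS, and limma-voom 2.42% and 2.01%. Members at an unadjusted p under 0.05 numbered 1 and 0, beside 3045 and 2072 of all genes. Unstimulated DUSP6 and ZFP36L1 lay wholly below WT in HA, as did 8.56% of genes, with log2 differences of -1.01 and -1.18. Without the furthest library of each group, 3 members were called lower in HA, DUSP6 at -1.24 (adjusted p = 0.0054), DUSP2 at -1.65 (0.0059) and ZFP36L1 at -1.23 (0.0098), in a fit that called 17.6% of genes. After LPS that fit called ZFP36L1, at -1.42 (0.0094), beside 4.72% of genes.

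**Figure D4:**
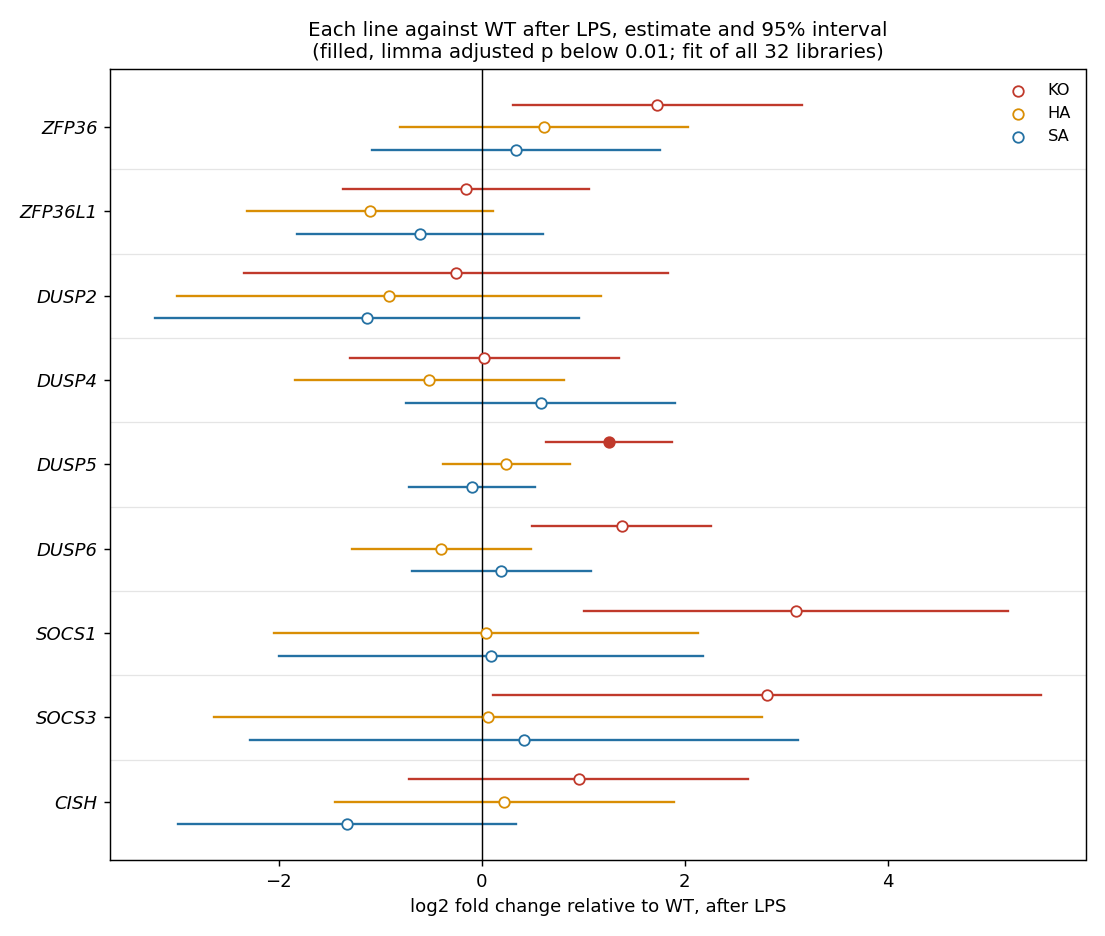
Each line against WT after LPS for the 9 tested genes, as log2 fold change with its 95% interval from the limma fit of all 32 libraries, with the WT LPS libraries shared by all 3 comparisons. KO lies to the right of HA and SA for every gene but DUSP4, and DUSP5 in KO, at 1.26, is the single filled point.

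In the direct comparison of KO with HA, DUSP6 had the lowest p in both conditions. The log2 difference was 2.08 ± 0.43 unstimulated (SE, limma adjusted p = 0.017) and 1.78 ± 0.43 after LPS (0.062), and KO did not overlap HA in either condition. The unstimulated DUSP6 difference passed the limit when KO replicate 3, KO LPS replicate 2 or 3, or SA replicate 1 or 3 was left out, in fits that called 0.21% to 0.25% of genes. Beside DUSP6, ZFP36L1 did not overlap unstimulated and DUSP5 after LPS, where 2.73% and 2.66% of genes were wholly higher in KO. No member was called by limma or limma-voom, with 0.226% and 0.00806% of genes called by limma and 0.202% and 0.113% by limma-voom. Members at an unadjusted p under 0.05 numbered 2 and 4, beside 1288 and 1308 of all genes. Without the furthest library of each group 3 members were called higher in KO in each condition, beside 8.18% and 1.95% of genes. Unstimulated they were DUSP6 at 2.32 (adjusted p = 7.4e-05), ZFP36L1 at 1.84 (0.0016) and SOCS3 at 2.69 (0.0079). After LPS they were DUSP6 at 2.07 (8.7e-04), CISH at 1.56 (0.0043) and SOCS3 at 2.99 (0.0098).

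SA cells hold the enzyme that cannot be phosphorylated at that serine. No member and no gene was called in SA against WT in either condition (0% of 12406), by limma or limma-voom. At an unadjusted p under 0.05 there were 0 members and 445 and 646 genes. Library weights called 4 genes unstimulated and 12 after LPS (0.0322% and 0.0967%), with no member among them. At the same limit the study, with DESeq2, reports CXCL11, IFI44, GBP1, EPSTI1 and IFIT2 as higher in S455A after LPS. After LPS the differences were -0.09 for DUSP5 (95% interval -0.71 to 0.53), 0.19 for DUSP6 (-0.69 to 1.07), 0.09 ± 1.02 for SOCS1 (SE) and 0.42 for SOCS3 (-2.28 to 3.12). Leaving out the furthest library of each group gave -0.19, -0.04, 1.04 and 0.35, with adjusted p-values of 1.0. The interval of SOCS3 is wide and includes the KO estimate of 2.81. With all libraries, CISH stood at -1.33 (-2.99 to 0.34) and DUSP2 at -1.13 (-3.22 to 0.96), and SA LPS replicate 1 was at 0 for both. Without the furthest libraries, the WT LPS and SA LPS means were 47.7 and 45.1 normalized counts for CISH. For DUSP2 they were 103 and 93.8. For the difference of the HA or SA response to LPS from that of WT, limma and limma-voom each called 0 members and 0% of genes. At an unadjusted p under 0.05 there were 0 and 0 members, and 142 and 457 genes.

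Other genes of these pathways were taken from 7 lists, with 88 genes tested. Transcripts known as targets of ZFP36 had the largest list median with LPS in WT (0.93) and in KO against WT. Of the 7 tested, 1 was called with LPS in WT, 3 in KO, 4 in HA and 3 in SA, all higher. The shares of all genes called there were 0.25%, 0.58%, 0.403% and 0.492%. CCL3, a chemokine that draws leukocytes, rose from 80.6 ± 29.3 to 430 ± 151 normalized counts in WT (SD, n = 4), by 2.42 ± 0.43 on the log2 scale (SE, limma adjusted p = 0.0031). In KO against WT after LPS, 3 of 7 were called higher with a list median of 1.92, where 3.47% of all genes were called. They were CCL3 at 3.09 (limma adjusted p = 1.4e-05), TNF at 1.06 (1.9e-05) and IL1B at 1.93 (0.0011). TNF read 857 ± 95.9 in WT and 1776 ± 51.4 in KO. ZC3H12A, the endonuclease regnase-1, was the 1 of 12 other mRNA decay factors called there, at 1.08 (0.0017), and the list median was 0.05. After LPS ZC3H12A read 929 ± 34.9 in WT and 1685 ± 312 in HA (SD, n = 4). HA also read 1477 ± 126.5 for TNF and 1862 ± 647.5 for CCL3 after LPS. Of the 7 ZFP36 targets, 2 were called higher than WT in unstimulated KO, 0 in unstimulated HA and 2 in HA after LPS. Of all genes 2.9%, 2.52% and 2.02% were called in these comparisons.

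Of 16 MAP kinases and activators tested, 0 were called by limma in KO against WT in either condition, beside 2.9% and 3.47% of all genes. At an unadjusted p under 0.05 there were 2 and 3 of them, beside 1770 and 2138 of all genes, and the list medians were -0.04 and 0.24. EGR1, an early transcription factor that ERK induces, was the 1 of 10 ERK-driven genes called after LPS, at 1.41 ± 0.32 on the log2 scale (SE, limma adjusted p = 0.0053). It read 31.9 ± 9.22 normalized counts in WT and 88.5 ± 35.7 in KO (SD, n = 4). Of 10 other MAPK phosphatases and ERK brakes, SPRED1, which keeps RAS from activating RAF, was the 1 called, at 1.23 ± 0.29 (0.0071). Without LPS, SPRED1 read 19.7 ± 7.125 in WT, 60.5 ± 10.65 in KO and 50.7 ± 15.2 in HA. EGR1 read 15.5 ± 2.65, 32.9 ± 7.17 and 39.15 ± 11.1 in the same groups. After LPS, HA read 33.8 ± 7.12 for SPRED1 and 57.1 ± 20.6 for EGR1.

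On the cytokine receptor side, 3 of 20 receptors, JAKs and STATs were called in KO against WT after LPS, all higher. The list median was 0.18, and 3.47% of all genes were called in that comparison. Among the 3 called, IL10RA, a chain of the interleukin 10 receptor, was higher by 1.61 ± 0.19 (SE, limma adjusted p = 1.2e-06). It read 608 ± 141 normalized counts in WT and 1845 ± 356 in KO (SD, n = 4). The kinase JAK2, which SOCS1 inhibits, was higher by 1.12 ± 0.17 (2.9e-05). IL10RA was also the 1 of these 20 called with LPS in WT, at 1.24 ± 0.19 (6.6e-04), beside 0.25% of all genes. Against unstimulated WT, 4 of the 20 were called higher in KO and 3 in HA, and after LPS 2 in HA, beside 2.9%, 2.52% and 2.02% of all genes. Without LPS, IL10RA read 254 ± 37.8 in WT, 667 ± 148 in KO and 647 ± 86.2 in HA. HA read 1551 ± 315.5 for IL10RA after LPS. Of 13 other SOCS and JAK-STAT brakes, 0 were called by limma after LPS in KO against WT, with 4 at an unadjusted p under 0.05 and a median of 0.04.

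Correlations of the 9 tested genes are descriptions over 32 libraries that share groups and, in part, the spread of the furthest libraries. With group means removed, DUSP2 ran with ZFP36L1 (r = 0.88), SOCS3 (0.83), CISH (0.82) and SOCS1 (0.79), and ZFP36L1 with CISH (0.75), SOCS3 (0.72) and SOCS1 (0.71). DUSP4 and ZFP36 ran against DUSP2, each with r = -0.56. SOCS1 and SOCS3 gave 0.83 over all libraries and 0.79 within groups, while DUSP5 with SOCS1 gave 0.60 and 0.00. The tested gene most like DUSP5 was CCL5 (r = 0.84), followed by BCL3 (0.80). SOCS1 was closest to SOD2 (0.90) and LRP12 (0.89), and SOCS3 to KYNU (0.93) and PTGER4 (0.93). NEK7 (0.90) was among the genes most like CISH. DUSP6 was closest to EVI2A and MOB1A (0.88 for both), DUSP2 to TXNDC11 (0.96) and SNRNP70 (0.96), and DUSP4 to TGFB1 and ENG (0.65 for both). ZFP36 was closest to ATXN7 (0.82) and PPTC7 (0.78), and ZFP36L1 to CCR2 (0.82) and FAM129B (0.80).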

How the data were processed

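The 32 libraries were QuantSeq 3′ libraries, in which reads start close to the poly(A) tail. The authors used Bbduk for trimming, STAR for mapping to GRCh38, HTSeq-count for counting and DESeq2 for normalization. Versions and the annotation release are not given in the sources used here. The authors deposited 8 tables of normalized counts, each of 60199 rows. The 92 spike-in rows, with 1 read in all libraries, were left out. No column went unused.

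Deposited values were whole multiples of 1 number per library (100% within 0.05 reads), so reads were recovered. Median-of-ratios factors of each line taken alone gave back the deposited scale. Values given here are reads divided by factors computed jointly over the 32 libraries, which differed from the deposited ones by up to 14.3%. This assumes that most genes did not change.

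Genes with a mean deposited value of at least 10 (12406) entered limma (version 3.58.1, R 4.3.3) as log2(normalized count + 1), with 8 group means, a trend in eBayes, and Benjamini-Hochberg adjustment within each of 15 comparisons at a limit of 0.01, the limit of the study's methods. The log2 scale with a pseudocount of 1 understates changes of low genes. Reads are not independent molecules, and a count of 0 allows up to 3 reads, a limit that covers counting error only. No 2 libraries of a group were copies (lowest chi-square per gene 4.74 over genes with at least 50 reads). The fit was tested on simulated data, with independent counts, the same dispersion for every gene and no library that stood apart. That test therefore does not cover the spread of the furthest libraries. Same-numbered WT and KO libraries deviated together (r across genes 0.124 to 0.723, all above 0.1, from the numbers in the labels), so that the replicate number was also used as a block there. Whether that number marks pairs was not tested. In the other comparisons r ran from -0.556 to 0.581. Gene positions come from GENCODE release 44. Members and lists were chosen with earlier results of these data known. Named genes were the members, up to 3 genes of each list with the smallest adjusted p among those called with LPS in WT and in KO against WT after LPS, and the 2 tested genes with the highest Pearson r to each member. Some of the genes this rule names are not reported here.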

Additional observations from a re-analysis of the deposited data

Results flagged for a closer look

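In 80 groups of 4 libraries (10 genes in 8 groups), the highest or lowest library was compared with the other 3 on the log2 scale, with its gap to the nearest set against the range of the group. That ratio passed Dixon's critical value in 9 groups, while chance flags about 5% of groups. In SA LPS replicate 1, ZFP36L1 was at 2.31 normalized counts and DUSP2, SOCS1 and CISH were at 0, below the other 3 libraries. In KO replicate 3, DUSP2 was low at 9.46 and SOCS3 was at 0. WT replicate 3 was low for CISH (7.84) and WT LPS replicate 3 for ZFP36L1 (14.1). These 4 libraries were the furthest of their groups over all genes. The ninth was DUSP5 in KO replicate 1, at 35.9 normalized counts above the other 3.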

How the results depend on the processing

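Tried were the deposited and TMM scales, pseudocounts of 0.5 and 5, no filter, only the groups compared, the replicate block and leaving out each library. The edgeR and DESeq2 tests were not run. Limma-voom, library weights, the fit without the furthest library of each group and the block over 16 WT and KO libraries were chosen after seeing the data. Leaving out the furthest libraries narrows the spread by that choice, so its calls are less strict. Of the values under alternatives, 5639 kept their side of the limit, 57 gained a call and 19 lost one. Among values called in either fit 0 reversed, and direction was not compared where neither was called. The cause was not tested.

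The share of all genes called stands in brackets. Members called with LPS in KO (1) became 2 with a pseudocount of 5 (0.653%), 0 with only the groups compared (0.169%), 3 with library weights (0.887%) and 3 without the furthest libraries (0.975%), and 1 to 3 when single libraries were left out (3 without SA LPS replicate 1, 0.79%, and 2 without KO LPS replicate 3, 0.629%). In KO against WT after LPS (1, DUSP5) they became 0 on the deposited scale (3.83%), with no filter (1.37%) or with only the groups compared (2.42%), 2 with a pseudocount of 5 (DUSP5 and SOCS1, 3.73%), 2 with library weights (DUSP6 and SOCS1, with DUSP5 lost, 8.96%), 4 without the furthest libraries (7%), and 0 to 1 with single libraries left out (2.6% to 5.06%). With LPS in WT library weights called 1 (0.709%), and with LPS in SA library weights (1.46%) and leaving out the furthest libraries (0.58%) each called 1. In HA against WT both called 3 unstimulated (21.2% and 17.6%) and 1 after LPS (9.37% and 4.72%). In KO against HA, library weights called 2 unstimulated (1.08%) and 1 after LPS (0.443%), leaving out the furthest libraries 3 (8.18%) and 3 (1.95%), and leaving out single libraries 0 to 1 unstimulated. With the replicate block, in either fit, members called were 1 with LPS in WT, 4 with LPS in KO, 1 in unstimulated KO against WT and 4 after LPS. The block changed no other call of a member. Genes at a few reads, DUSP1 above all, are limited by depth.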
